A study of Solanum lycopersicum and Solanum pimpinellifolium with 9 samples.

Results

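Transcript levels in the fruit of tomato were set against those in its other organs, using 7 of the 9 libraries of the series. The fruit side held 3 libraries of Solanum lycopersicum cultivar MoneyMaker, namely mature green fruit (full size, still green), breaker fruit (turning colour) and ripe red fruit. The other side held 4 libraries of the same cultivar: grown root, upper stem from under the apical meristem, fully expanded leaf aged 2 to 3 weeks, and flower at full anthesis with the sepals removed. The labels alone decide which libraries stand on which side, and the rule uses no measured value. All plants grew in soil in a greenhouse with 16 h of light and 8 h of dark, no treatment or transgene is named, and each group is 1 library. Stages of ripening are not replicates of fruit, and the organs are not replicates of a non-fruit state. No test between groups was therefore possible, and every count below applies a rule of size. The 2 remaining libraries, fully expanded leaf (2 to 4 weeks old) and ripe red fruit of LA0722, an accession of the wild relative Solanum pimpinellifolium, took no part in choosing genes and serve as a separate readout.

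Tomato fruit develops from the ovary of the flower. While green it carries chloroplasts. At the breaker stage the plant hormone ethylene is made in quantity, chloroplasts turn into chromoplasts that fill with the red pigment lycopene, and enzymes loosen the cell wall. Leaf is the main photosynthetic organ, root takes up water and minerals, stem conducts and supports, and the open flower holds mature pollen, whose transcripts are found in few other places. The deposited table gives gene IDs of the Solyc form and pairs none of them with a name. The gene table used as a reference held 0 of the IDs, so the genes below carry no name or role, and the tissue labels could not be checked against marker genes. In such an ID the number after Solyc is the chromosome, and genes are numbered along it, so neighbouring IDs are neighbouring gene models.

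The values are RPKM, read numbers scaled to the length of the gene model and to the total of the library, so levels of different genes are compared per length. The totals of reads that the values imply ran from 213742 in flower to 380306 in leaf among the 7 libraries, with 214610 in breaker, 270466 in ripe and 346944 in mature green fruit. On a gene model of 1 kb, 1 read was worth 4.68 RPKM in flower and 2.63 RPKM in leaf. Flower stood apart, with 3478 genes at 25 RPKM or more against 4770 in leaf and 7150 in root. As a coarse check of labels, LA0722 leaf correlated best with MoneyMaker leaf among the 7 libraries (Pearson r of 0.68 on log2(RPKM + 5)), and LA0722 ripe fruit best with MoneyMaker ripe fruit (0.78), across 12519 genes, which share libraries and are not independent.

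The first comparison asked which genes had a higher or lower mean over the 3 fruit stages than over the 4 organs. Values were taken as log2(RPKM + 5), and the 12519 genes at 25 RPKM or more in at least 1 of the 7 libraries were compared. A gene counted as higher or lower in fruit when the means differed by 2 log2 units, which is 4-fold after the added 5 RPKM. The 2 directions were nearly equal in number: 761 genes were higher in fruit (6.08% of those compared) and 771 were lower (6.16%). The difference over all genes compared had a median of 0.32 log2 units in favour of fruit, with the middle 95% between -2.67 and 2.81. The offset was not the same for every organ: the median of the fruit mean minus flower alone was 1.14, and it was -0.01 for root, 0.0 for stem and 0.47 for leaf. The even split depended on scaling. Upper-quartile scaling lowered the median difference by 0.30 and left 598 genes higher and 919 lower, so 39.4% of called genes were higher instead of 49.7%, and median-ratio size factors lowered it by 0.61 and left 458 higher and 1090 lower (29.6% higher). Without flower 35.6% were higher, while the larger direction turned to higher in fruit without root (55.7%), stem (54.3%) or ripe fruit (53.6%). In bulk tissue, fewer cells of a type and less RNA per cell cannot be told apart.

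**Figure D1:**
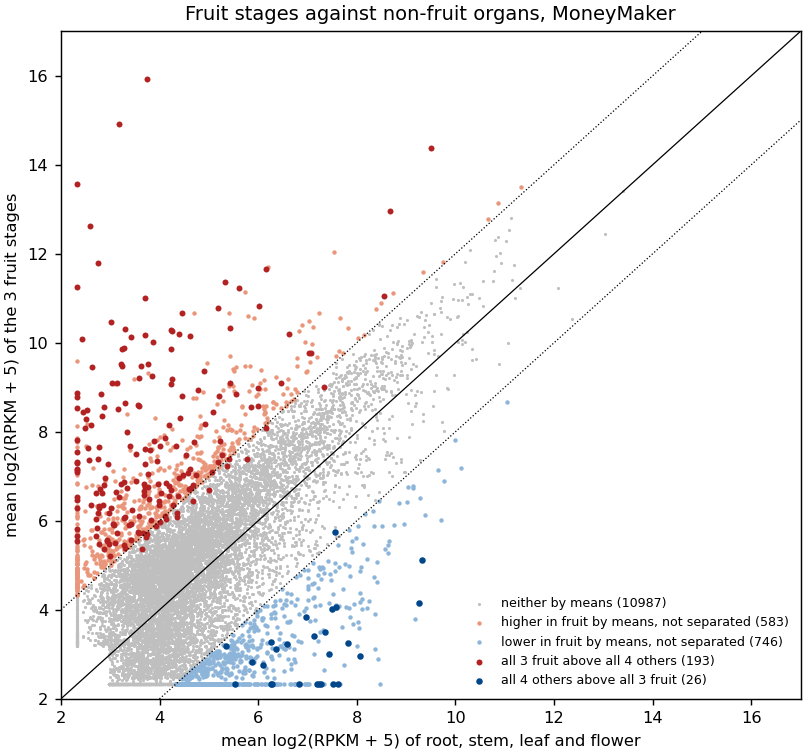
Mean log2(RPKM + 5) of the 3 fruit stages (vertical axis) against that of root, stem, leaf and flower (horizontal axis), 1 point per gene for the 12519 genes compared. The solid line marks equality and the dotted lines 2 log2 units either way; the 193 genes whose 3 fruit libraries all lie above the 4 others (dark red) reach the top left, and the 26 with the reverse order (dark blue) lie low on the right.

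The 761 genes higher in fruit made up a large part of the fruit transcriptome. They held 25.6% (mature green), 38.5% (breaker) and 37.9% (ripe) of summed fruit RPKM, against 5.84% in stem, 3.80% in root, 3.05% in leaf and 1.39% in flower. As shares of reads, which are not divided by gene length, the fruit values were 19.2%, 34.0% and 34.4%. These values describe the choice of genes and support nothing further. Their median level was 73.3 RPKM in mature green and 143 RPKM in both breaker and ripe fruit, and mature green was the lowest of the 3 stages for 448 of the 761 genes. The most frequent highest stage was ripe, for 327 genes, followed by breaker with 302 and mature green with 132.

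The 771 genes lower in fruit held 56.8% of summed RPKM in flower, 29.2% in leaf, 16.7% in stem and 16.0% in root. Most of the flower share, 53.9% of its summed RPKM, came from 124 genes in which flower was the only organ above fruit. That class is defined below. In fruit the share of the 771 genes was 1.98% at mature green, 0.576% at breaker and 0.0997% when ripe. Mature green fruit listed 444 of the 771 at 0, breaker 538 and ripe 655, so most of these genes were not detected at the red stage. These shares and counts describe the choice of genes low in fruit and support nothing further. A value of 0 allows up to 3 reads, which at 1 kb is 8.65, 14.0 and 11.1 RPKM in the stages in that order, counting error only.

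**Figure D2:**
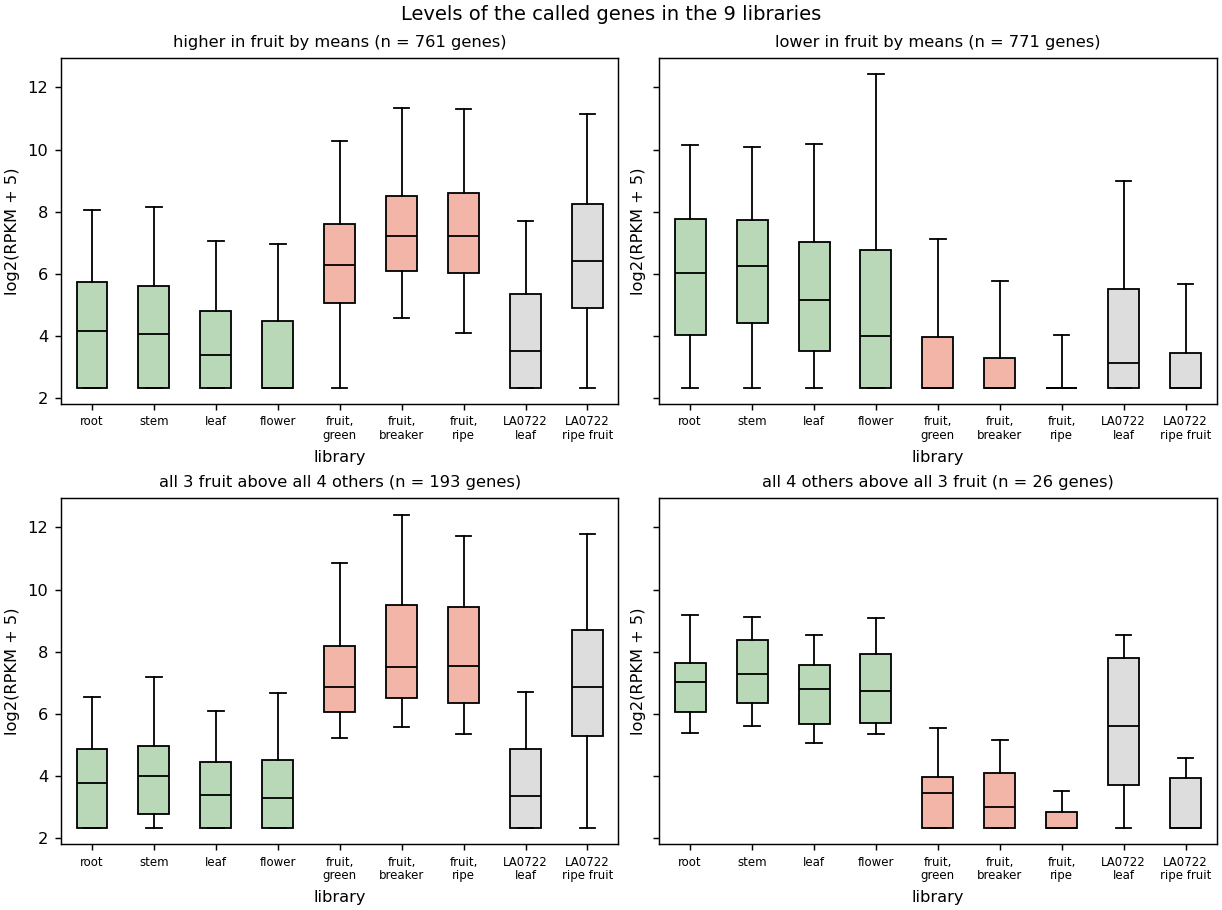
Level, as log2(RPKM + 5), of the called genes in each of the 9 libraries, for genes higher (n = 761) or lower (n = 771) in fruit by means and for genes with complete separation of the libraries (n = 193 and n = 26). Boxes span the quartiles over genes with the median as a line, whiskers the 5th to 95th percentile; green boxes are organs, red boxes fruit stages and grey boxes LA0722, whose ripe fruit sits near MoneyMaker fruit in the upper left panel although it did not choose the genes.

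Solyc07g049140, on chromosome 7, had the largest mean difference of all genes compared. Its fruit levels were 35856, 64802 and 103487 RPKM in order of ripening, against 30.5 RPKM (3 reads) in root, 32.2 RPKM (2 reads) in flower and 0 in stem and leaf. The 2 sides did not overlap, and the level was higher at each later stage. The lowest fruit library was 1110-fold above flower, with a 95% exact interval of 308 to 9210 from counting error. In LA0722 it was at 0 in leaf and at 153272 RPKM in ripe fruit.

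Solyc10g017970 came next, with a mean difference of 11.74 log2 units. Its fruit levels were 26224, 28212 and 39761 RPKM in order of ripening, with 48.6 RPKM (3 reads) in stem and 0 in root, leaf and flower. The 3 stages lay within 1 log2 unit of each other, and the lowest was 539-fold above stem (interval 184 to 2620). Its inferred coding length was only 183 nt, and that of Solyc07g049140 was 291 nt. RPKM of so short a model can be raised by reads that reach beyond it, which leaves the ratio between libraries of the same gene unchanged.

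On the lower side Solyc07g043390 led, with a mean difference of -6.16. It stood at 990 RPKM in root, 888 in stem and 3640 in leaf and was listed at 0 in flower and in all 3 fruit stages. Solyc12g009650 followed with -5.53, from 2487 RPKM in stem, 2168 in leaf, 299 in flower and 3.71 (1 read) in root, against 11.7 RPKM (2 reads) in breaker and 0 in the other fruit libraries. Neither gene separated all organs from all fruit stages, because flower in the first and root in the second lay as low as fruit.

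The second comparison was stricter and set the lowest of the 3 fruit values against the highest of the 4 others. A gene counted as separated when all 12 library pairs differed by at least 1 log2 unit (2-fold after the added 5 RPKM) and the lowest library of the higher side had 25 RPKM. Fruit lay above every organ for 193 genes (1.54% of those compared) and below every organ for 26 (0.208%). Of the 761 genes higher by means 178 were separated, and of the 771 lower ones 25 were. With no minimum gap, 934 genes had all fruit values above all others and 67 the reverse. At gaps of 4-fold, 8-fold and 16-fold there were 77, 45 and 23 genes above, and 13, 6 and 0 genes below.

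The unequal numbers moved with the flower library, whose part in them was not otherwise tested. All 3 fruit libraries reached 25 RPKM for 3917 genes, of which 4.93% were separated upward, while all 4 organs did so for only 1555 genes, of which 1.67% were separated downward. Without flower 217 genes lay below in fruit and 237 above. Without mature green fruit 521 genes lay above and 68 below. Leaving out any library can only remove a requirement or leave it, so these counts rise by construction for genes already at the level. The count above was also over 1.5 times larger without root (302) or ripe fruit (307), and the count below without root (54), stem (40) or leaf (57). Median-ratio size factors, which raise flower by 1.27 and leaf by 0.59 log2 units, gave 99 genes above and 78 below. Fruit lay above in more genes than below under both scalings tried, with 145 and 48 genes after upper-quartile scaling.

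**Figure D3:**
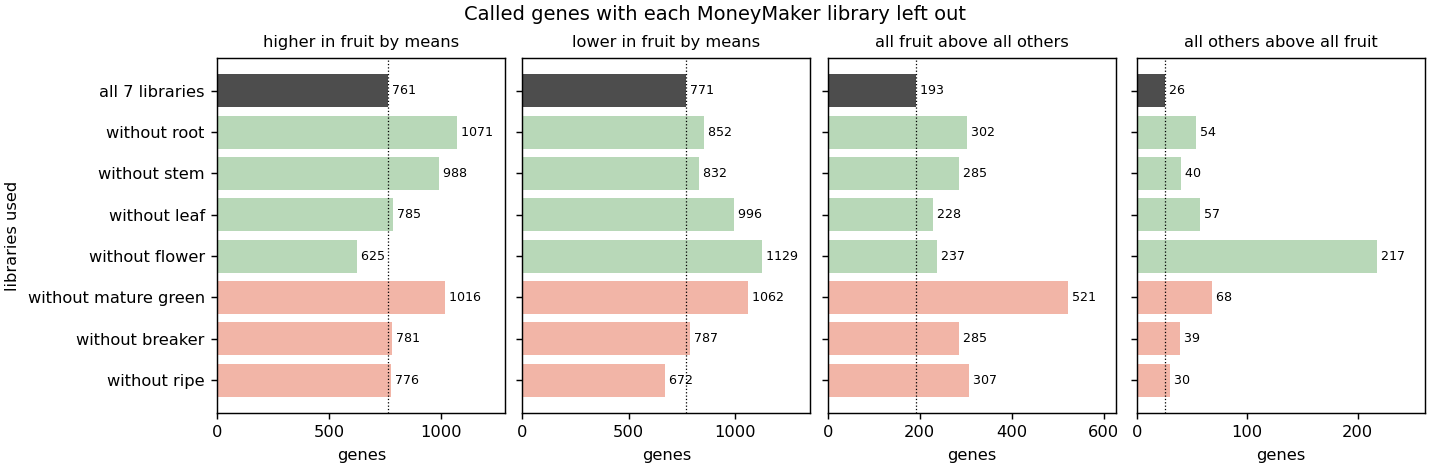
Number of genes called with all 7 MoneyMaker libraries (dark bar and dotted line) and with each library left out in turn, for the 2 directions of the comparison of means and the 2 directions of the comparison of lowest with highest. Removing flower takes the genes with all organs above fruit from 26 to 217, and removing mature green fruit takes the genes with all fruit above the organs from 193 to 521.

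Reads behind the separation were few for some genes. In the lowest fruit library the 193 genes had a median of 21 reads, and 150 had 10 or more. For 136 of them (70.5%) the exact 95% interval of the ratio, from counting error, lay above 1 against each of the 4 organs. For the reverse order this held for 15 of 26 genes (57.7%). The genes were chosen on these same values, so both shares are largely set by the rule and describe the chosen genes only. Near the limit, 55 genes lay within 0.25 log2 units inside the gap of 1 log2 unit and 90 just outside it, among genes whose fruit libraries all reached 25 RPKM.

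The largest gap belonged to Solyc10g017980. Mature green fruit had 4969 RPKM (331 reads), breaker 10581 (436 reads) and ripe fruit 33237 (1726 reads), while all 4 organs were listed at 0. Against a floor of 3 reads in flower, the shallowest of the 4, the lowest fruit value was at least 68.0-fold higher. Its inferred coding length was 192 nt, and in LA0722 it went from 0 in leaf to 66929 RPKM in ripe fruit. Solyc07g049140, described above, had the next largest gap. With Solyc10g017970, the gene of the third largest gap, the 3 took 5.04%, 7.25% and 11.2% of summed RPKM over the 3 stages, but only 1.62%, 2.61% and 4.38% of reads.

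In the reverse order Solyc01g091320 led. It stood at 128 RPKM in root, 72.3 in stem, 192 in leaf and 539 in flower and was listed at 0 in all 3 fruit stages, which puts the lowest organ at least 4.67-fold above a floor of 3 reads in breaker. Solyc07g007240 stood at 891, 71.5, 211 and 94.0 RPKM in the same organs and was also listed at 0 in fruit. Its stem and flower values rested on 6 and 5 reads, so its lowest organ was only at least 1.27-fold above that floor.

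The 193 genes separated upward differed in their course over ripening. For 74 of them the 3 stages lay within 1 log2 unit. A single stage exceeded the next by at least 1 log2 unit for 48 in all, which was breaker in 24, ripe in 15 and mature green in 9. The remaining 71 varied by more than 1 log2 unit without a stage that stood clear. Without regard to size, breaker was the highest stage for 87, ripe for 72 and mature green for 34, and mature green was the lowest for 111. Median-ratio size factors, which change the set, left 31 even, 19 breaker-high, 13 ripe-high and 5 green-high genes, in the same order. The count of even genes was 137 without root and 123 without stem, and that of ripe-high genes 25 without stem, since fewer organs then have to be exceeded.

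Solyc04g007770 led the genes highest in mature green fruit, with 26317 RPKM there, 2508 in breaker and 683 in ripe fruit, against 11.8 RPKM (2 reads) in leaf and 0 in root, stem and flower. Its level was lower at each later stage and still lay 57.7-fold above leaf when ripe (15.5 to 484). Solyc03g116230 was the next, at 588, 168 and 187 RPKM in fruit, with 2.96 RPKM (1 read) in leaf only.

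Solyc08g062450 led the genes highest at breaker, at 526, 6408 and 837 RPKM in order of ripening, with 1 read each in stem (6.22 RPKM) and flower (9.81 RPKM). Solyc01g057000 showed the same shape at 494, 3492 and 1190 RPKM, with 11.4 RPKM in stem and 18.0 RPKM in flower, 2 reads in each. Root and leaf held no reads of either gene. For both genes breaker stood clear of the stages before and after it.

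Among the genes highest in ripe fruit, Solyc10g017980 came first and Solyc07g009530 next, the latter at 105, 340 and 1329 RPKM in order of ripening and at 0 in the 4 organs. In mature green fruit that gene had 7 reads, at least 1.44-fold above a floor of 3 reads in flower. The even class was led by Solyc10g017970 and Solyc12g010950. The latter stood at 335, 300 and 334 RPKM in fruit, with 5.70 RPKM (2 reads) in stem, 4.49 RPKM (1 read) in flower and 0 in root and leaf, 52.6-fold above stem at its lowest (14.0 to 443).

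**Figure D4:**
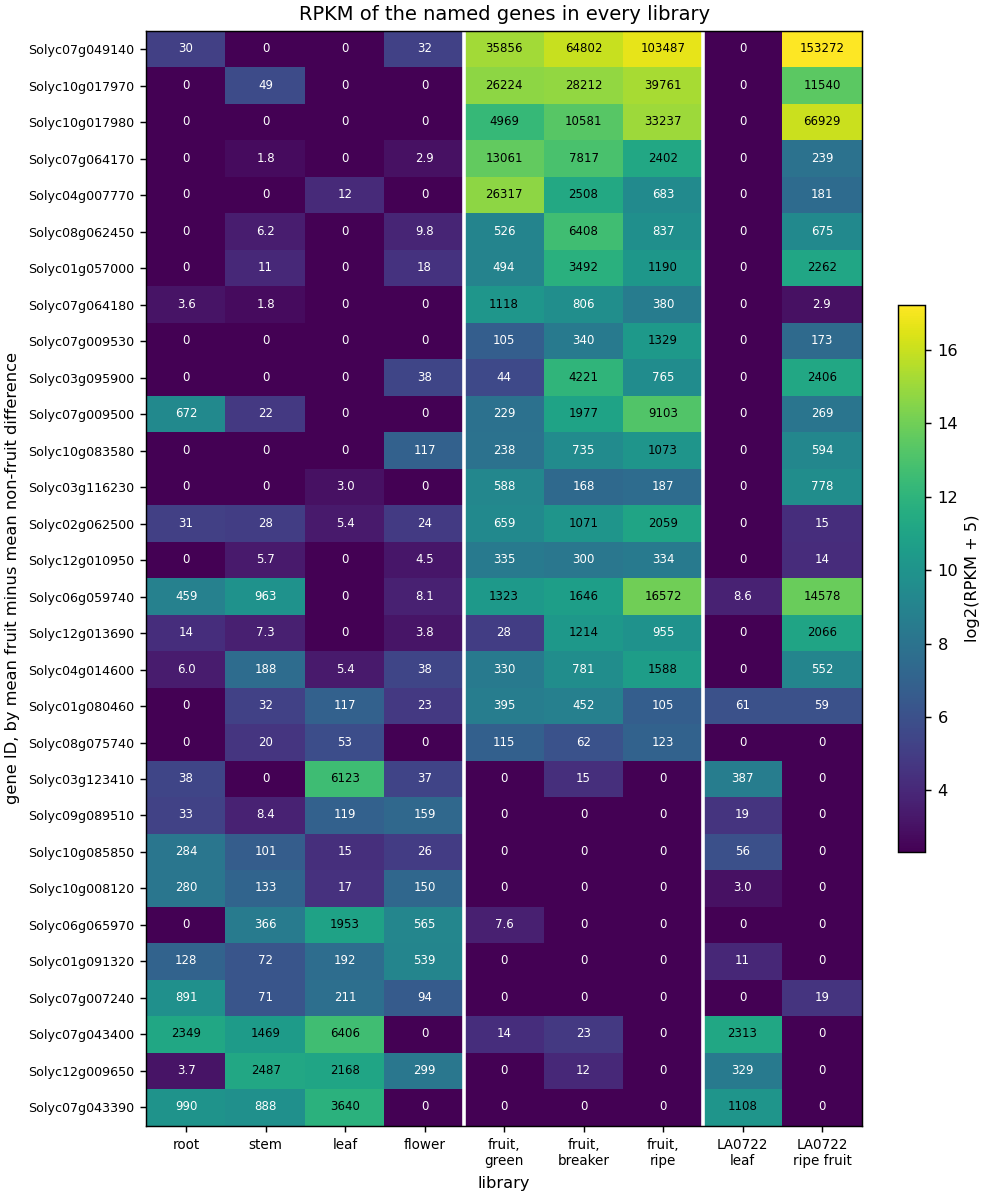
RPKM (numbers) and log2(RPKM + 5) (colour) of the 30 genes named by rule, in the 9 libraries; rows run from the largest mean difference in favour of fruit (Solyc07g049140) to the largest in favour of the other organs (Solyc07g043390). White lines divide the 4 organs, the 3 fruit stages and the 2 LA0722 libraries.

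Stem was the organ that came nearest to fruit for 79 of the 193 separated genes, ahead of root with 41, flower with 29 and leaf with 26. The other 18 were listed at 0 in all 4 organs. Root was nearest for Solyc07g064180, at 3.58 RPKM (2 reads) in root, 1.80 (1 read) in stem and 1118, 806 and 380 RPKM over ripening. It was also nearest for Solyc02g062500, at 30.6 (10 reads) in root, 27.6 (9 reads) in stem, 5.44 in leaf and 24.2 in flower. That gene had 659, 1071 and 2059 RPKM in fruit. With so few reads, the order of root and stem was uncertain in both genes. These 2 genes ran in opposite directions over ripening. Flower was nearest for Solyc07g064170, with fruit levels of 13061, 7817 and 2402 RPKM, but flower (2.85 RPKM) and stem (1.81 RPKM) had 1 read each, and 1 read is worth more RPKM in the shallower flower library. Stem was nearest for Solyc10g017970 and Solyc12g010950, leaf for Solyc04g007770 and Solyc03g116230.

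Of the genes higher in fruit by means, 583 were not separated. For 253 of these at least 1 fruit library was under 25 RPKM, most often mature green alone (137 genes), less often ripe alone (41) or breaker alone (29). In the other 330 all fruit libraries reached the level, and 1 or more organs came within 1 log2 unit of the lowest fruit value or above it. A single organ did so for 170 genes, namely root for 65, stem for 55, flower for 33 and leaf for 17. For 125 genes 2 organs did, for 31 genes 3 organs and for 4 genes all 4.

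Solyc07g009500 was kept from separation by root. It stood at 672 RPKM in root and 22.5 in stem, with 229, 1977 and 9103 RPKM in fruit by stage, so root exceeded green fruit and lay below the later stages. Solyc12g013690 had 14.5 RPKM (6 reads) in root against fruit levels of 28.3 (12 reads), 1214 and 955 RPKM by stage. For both, mature green was the fruit stage that met the organ.

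Stem kept out Solyc06g059740, at 459 RPKM in root, 963 in stem, 0 in leaf, 8.10 in flower and 1323, 1646 and 16572 RPKM over ripening. Mature green exceeded stem by only 1.37-fold (1.2 to 1.57), while ripe fruit stood far above both. Solyc04g014600 followed with 188 RPKM in stem and 330, 781 and 1588 RPKM in fruit. Flower kept out Solyc03g095900, at 37.7 RPKM in flower, 0 in the other organs and 43.9, 4221 and 765 RPKM in fruit, and Solyc10g083580, at 117 RPKM in flower and 238, 735 and 1073 RPKM in fruit.

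Leaf kept out Solyc01g080460, at 117 RPKM in leaf and 395, 452 and 105 RPKM in fruit, where ripe fruit and leaf did not differ beyond counting error (ratio 0.894, interval 0.669 to 1.19). Solyc08g075740 was the other, at 52.6 RPKM in leaf, 19.8 in stem and 115, 62.1 and 123 RPKM in fruit, on at most 6 reads in any library.

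Among the 771 genes lower in fruit, 12 had no organ at least 1 log2 unit above the highest fruit library at 25 RPKM or more. The number of organs that were was 1 for 213 genes, 2 for 298, 3 for 223 and 4 for 25. Where 3 were, the organ that failed was flower for 159, root for 28, leaf for 24 and stem for 12. An organ could fail by the gap or by the level of 25 RPKM alone. Where only 1 was, it was flower for 124, root for 49, stem for 22 and leaf for 18. Stem was above fruit for 505 of the 771, root for 459, leaf for 359 and flower for 255.

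Solyc07g043390 and its neighbour Solyc07g043400 were low in fruit and flower alike. The second stood at 2349 RPKM in root, 1469 in stem and 6406 in leaf, 0 in flower, 14.1 and 22.8 RPKM (1 read each) in mature green and breaker and 0 in ripe fruit. Root was the exception for Solyc12g009650 and for Solyc06g065970, at 0 in root, 366 RPKM in stem, 1953 in leaf and 565 in flower, with 7.57 RPKM (1 read) in mature green fruit alone. Leaf was the exception for Solyc10g008120, at 280 RPKM in root, 133 in stem, 16.9 in leaf and 150 in flower. It was also the exception for Solyc10g085850, at 284, 101, 14.9 (1 read) and 26.4 RPKM (1 read). Both genes were at 0 in all fruit stages. Leaf still lay 2.13 and 1.99 log2 units above fruit in them and failed only the level of 25 RPKM. Stem was the exception for Solyc09g089510, at 33.4, 8.38 (1 read), 119 and 159 RPKM in the same order and 0 in fruit. Its stem value lay 1.42 log2 units above fruit and failed only the level. Stem was also the exception for Solyc03g123410, at 6123 RPKM in leaf, 37.8 in root, 37.3 in flower and 0 in stem. It had 14.9 RPKM (2 reads) in breaker fruit, and without the leaf library its mean difference was -1.40, short of the limit.

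The share of called genes beside other called genes on the chromosomes was larger than their share overall. The places directly before and after each called gene were counted where a compared gene held them, so a gene between called genes counts once for each. Beside genes separated upward, 24 of 180 such places (13.3%) held another gene separated upward, against 1.54% of all genes compared. The share was 14.9% (106 of 712 places, against 6.08%) for genes higher by means and 15.3% (110 of 717 places, against 6.16%) for genes lower by means. No test of this difference was made. The 193 separated genes held 10 runs of neighbours with 22 genes, of which Solyc10g017970 and Solyc10g017980, and Solyc07g064170 and Solyc07g064180, are pairs. Neighbours can be copies of each other that share reads, and the sources used here do not give how reads matching several genes were counted, so the split of reads within such a pair is uncertain.

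The share separated upward was highest on chromosome 7 (21 of 903 genes compared, 2.33%), 12 (2.11%) and 1 (2.03%), and lowest on chromosome 9 (1.01%) and 11 (1.02%) among the 12 chromosomes. Models with the number 00, which are not placed on a chromosome, gave 1 of 129. The median inferred coding length was 648 nt for genes higher in fruit, 663 nt for genes lower, 753 nt for those separated upward and 831 nt over all genes compared. The smallest fitting length was taken, so lengths of genes listed in few libraries can be too short. These medians therefore do not show that called genes are shorter.

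LA0722 gave a separate readout of the direction, since its libraries chose none of these genes. There ripe fruit was at least 2 log2 units above leaf for 11.4% of the 12519 genes compared and at least 2 below for 12.1%. Of the 761 genes higher in MoneyMaker fruit by means, 387 (50.9%) were higher in LA0722 ripe fruit than in its leaf and 22 (2.89%) were lower, with a median difference of 2.03 against 0.0 over all genes compared. Of the 193 separated genes 111 (57.5%) were higher and 3 (1.55%) lower, with a median of 2.85. In LA0722 ripe fruit 155 of the 193 (80.3%) reached 25 RPKM, and 11 were at 0 in both LA0722 libraries. The share at that level was 40.3% of all genes compared, but only the 193 had to reach it in all 3 MoneyMaker fruit libraries. Genes higher by means that met this demand and were not separated reached it as often. Their shares were 83.5%, 88.0% and 83.9% where 1, 2 or 3 organs came within 1 log2 unit of the lowest fruit value or above it. The readout has no root, stem or flower, so it bears on fruit against leaf only.

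**Figure D5:**
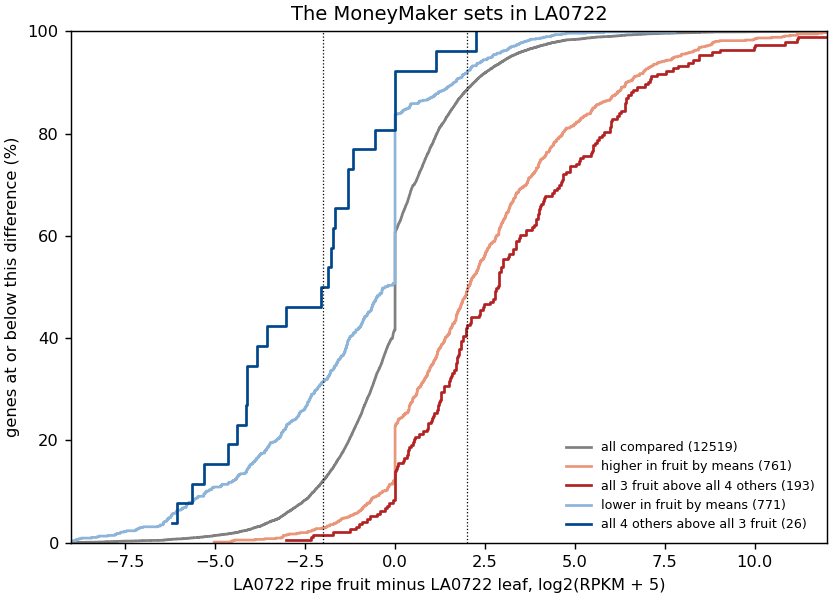
Cumulative share of genes (vertical axis, %) at or below a given difference of LA0722 ripe fruit minus LA0722 leaf (horizontal axis, log2(RPKM + 5)), for all 12519 genes compared and for the 4 sets called in MoneyMaker. Dotted lines mark 2 log2 units; the curves of genes higher in MoneyMaker fruit lie to the right of all genes, with medians of 2.03 and 2.85, and the steps at 0 hold genes listed at 0 in both LA0722 libraries. The few genes beyond the ends of the axis are not drawn.

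The LA0722 difference is given by stage class of the MoneyMaker fruit, with no test between classes. Genes highest at breaker had a median of 4.89 log2 units in LA0722, with 19 of 24 past the limit, and genes highest in ripe fruit a median of 5.15 with 11 of 15. The even class had a median of 1.67 with 30 of 74, and genes highest in mature green fruit one of 1.74 with 4 of 9. The classes were not matched for the size of the MoneyMaker difference. Its median was 5.05 log2 units for breaker, 5.33 for ripe, 2.51 for even and 4.2 for mature green. Among genes higher by means with ripe fruit alone under 25 RPKM, 6 of 41 (14.6%) were higher in LA0722 ripe fruit, near the 11.4% of all genes, and with mature green alone under that level 91 of 137 (66.4%) were.

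Levels in ripe fruit of LA0722 and MoneyMaker differed widely for some of the leading genes. Solyc02g062500 had 2059 RPKM in ripe MoneyMaker and 14.7 RPKM (3 reads) in that of LA0722, Solyc12g010950 at 334 and 13.7 RPKM (3 reads), and Solyc07g064180 at 380 and 2.86 RPKM (1 read). These 3 genes were at 0 in LA0722 leaf. Solyc03g116230 was the reverse, at 187 RPKM in MoneyMaker and 778 RPKM in LA0722 ripe fruit.

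Of the 771 genes lower in MoneyMaker fruit, 243 (31.5%) were lower in ripe fruit than in leaf of LA0722 and 63 (8.17%) were higher. Over all genes compared, the shares for this paragraph were 12.1% lower and 11.4% higher. Of the 771 genes, 255 were at 0 in both LA0722 libraries and could show no difference. Of the 26 genes separated downward 13 (50.0%) were lower and 1 higher. By organ, of the 359 genes with leaf above fruit in MoneyMaker 178 (49.6%) were lower in LA0722 ripe fruit than in leaf and 10 (2.79%) higher. Of the 459 with root above, 140 (30.5%) were lower and 23 (5.01%) higher. Of the 255 with flower above, 57 (22.4%) were lower and 46 (18.0%) higher, with a median difference of 0.0. These organ groups share genes.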

How the data were processed

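The authors deposited RPKM values with 2 decimals for 34727 gene IDs in 9 columns, 1 per library. Per the labels' protocols, PCR-amplified cDNA was sequenced on the 454 Titanium system, and HTSeq is named in the submitters' processing notes. Aligner, build, annotation, filters and the HTSeq version are not stated in the sources used here. Matching of columns went by name: the column for mature fruit was taken as mature green, and the column for a berry with the number 10 as ripe MoneyMaker fruit, by elimination.

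Differences were taken on log2(RPKM + 5), where the pseudocount understates folds of low genes. Genes named are the 2 with the largest value per direction or class. The comparison, its members, lists and rules were chosen with earlier results of these data known, although the rule itself sorts libraries by label only. Planned gene lists were not run, for want of names. Read numbers were recovered from the steps in which RPKM values of a gene occur, under the assumption that lengths are multiples of 3. All 128956 values above 0 came within 0.05 of a whole read, as required of every solution, and the reads summed to 92.5% to 99.9% of the implied totals, lowest in flower. The smallest fitting numbers were used, so reads and lengths of genes listed in few libraries can be too low. The recovery, tested on simulated data, gave 97.6% of read numbers exactly (21908 genes). The simulated data were built from the recovered reads, lengths and totals, so the assumption on lengths and the overall scale were not tested. Ratio intervals are exact (Clopper-Pearson, 95%) and cover counting error only, since PCR copies are not independent molecules. Python 3.11.15, numpy 2.4.6, pandas 2.3.3 and scipy 1.17.1 were used. Alternatives were other pseudocounts, minimum levels, thresholds and scalings, and leaving out each library.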

Additional observations from a re-analysis of the deposited data

Results flagged for a closer look

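Of the genes with complete separation in MoneyMaker, 4 moved the opposite way by at least 2 log2 units between leaf and ripe fruit of LA0722; with 1 library per group the difference between the species was not tested. Solyc08g077530 stood at 40.4, 48.3 and 45.1 RPKM in the 3 MoneyMaker fruit stages and at most 14.4 RPKM in the 4 organs, but at 227 RPKM (112 reads) in LA0722 leaf and 23.1 RPKM (8 reads) in LA0722 ripe fruit, a difference of -3.05. Solyc04g053130 stood at 103, 158 and 308 RPKM in MoneyMaker fruit and at most 39.8 RPKM in the organs, against 463 RPKM in LA0722 leaf and 88.6 RPKM in its ripe fruit, a difference of -2.32. Solyc10g055760 stood at 105, 104 and 178 RPKM in MoneyMaker fruit and at most 37.0 RPKM in the organs, against 19.5 RPKM (5 reads) in LA0722 leaf and 0 in its ripe fruit, a difference of -2.29. Solyc07g007240, above fruit in every MoneyMaker organ, was at 0 in LA0722 leaf and at 19.0 RPKM (1 read) in its ripe fruit, a difference of 2.26. These genes are named for these values, after they were seen. The last 2 differences rest on 5 reads or fewer. Leaf is the organ in which the first 2 genes differed most between the species, at 6.41 and 26.8 RPKM in MoneyMaker leaf.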

How the results depend on the processing

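The number of genes higher and lower in fruit by means was 1579 and 1886 with a pseudocount of 1 RPKM, 310 and 246 with 20 RPKM, and 3328 and 2630 with a threshold of 1 log2 unit; so the larger direction turned with the last 2, as it did without root, stem or ripe fruit. Median-ratio size factors left 458 genes higher. Leaving out 1 library gave 625 to 1071 genes higher and 672 to 1129 lower, the extremes being without flower and without root for higher, and without ripe fruit and without flower for lower. Genes with all fruit above all organs numbered 91 at a minimum of 100 RPKM, 77 at a gap of 2 log2 units and 99 with median-ratio size factors, and 228 to 521 with 1 library left out. Genes with all organs above all fruit numbered 96 with no minimum level, 2 at 100 RPKM, 15 with a pseudocount of 20 RPKM, 13 at a gap of 2 log2 units, 78 with median-ratio size factors, 48 with upper-quartile scaling and 30 to 217 with 1 library left out. The share of genes higher in fruit that were also higher in LA0722 ripe fruit was 40.9% with a pseudocount of 1 RPKM, 63.5% with 20 RPKM, 54.8% after upper-quartile scaling and 62.2% under median-ratio size factors. The share over all genes compared, 11.4% in the main setting, was not recomputed under these settings. Whether the excess over all genes rose or fell is therefore not known. Of 363 repeats of the mean difference of the named genes under other pseudocounts, scalings and omissions, 0 changed sign, 6 fell under the threshold and 2 rose above it. Most of these genes were chosen for large differences in the same libraries, so the repeats say little about the sets. Under median-ratio size factors 60.2% of the genes higher and 97.8% of those lower by means were called again. For separated genes it was 50.8% upward and 96.2% downward. Counts at low RPKM rest on few reads: 25 RPKM on 1 kb is between 5 and 10 reads. No paired analysis was possible because each group has 1 library. The causes of these changes were not tested.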

Other observations

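The 124 genes lower in fruit by means in which flower alone lay above fruit stood apart in LA0722, though most were under 25 RPKM there. Of these, 39 (31.5%) were at least 2 log2 units higher in LA0722 ripe fruit than in its leaf, against 11.4% of all genes compared, 5 of 49 for the genes with root alone above, and 0 of 22 and 0 of 18 for stem and leaf. In LA0722 ripe fruit 69 of the 124 were above 0 and 31 reached 25 RPKM, while MoneyMaker ripe fruit had 6 above 0 and 0 at that level, and breaker fruit had 29 and 5. Their summed level in LA0722 ripe fruit was 0.296% of that in flower, and in LA0722 leaf 0.217%. In MoneyMaker it was 0.185% in stem, 0.135% in root and 0.0913% in leaf. In MoneyMaker fruit it was 0.0985% at breaker, 0.0957% at mature green and 0.00369% when ripe. Of the 124 genes 16 were above 0 in LA0722 leaf. The median LA0722 difference of the 124 was 0.36. Their median inferred coding length was 534 nt, which can be too short for genes listed in few libraries. On a gene model of 1 kb, 1 read was worth 4.73 RPKM in LA0722 ripe fruit, and more on shorter ones. Differences of 2 log2 units in this group can therefore rest on few reads. The rule keeps MoneyMaker fruit low in these genes and leaves LA0722 free, and the source of the LA0722 reads was not tested.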
